A study of Homo sapiens with 4 samples.

Results

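Aminoacyl-tRNA synthetases are the enzymes that join each amino acid to its transfer RNA (tRNA), the step that fixes the meaning of the genetic code. Their genes were followed here after knockdown of METTL14 in SK-N-BE(2), a human neuroblastoma cell line that carries extra copies of MYCN. METTL14 is the RNA-binding partner in the methyltransferase that writes N6-methyladenosine (m6A) on RNA. A fixed list of 35 gene symbols was matched to the 60671 gene IDs of the count table. Each symbol met 1 gene ID, and all 35 passed the filter on low counts. Of these genes, 19 encode cytosolic enzymes and 16 encode mitochondrial enzymes (symbols ending in 2), and the knockdown was compared between both sets. The list was drawn by function, by a rule that used no measured value, although earlier results of these data were known when it was proposed.

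RNA was sequenced from libraries made with an mRNA kit, 2 libraries in each group. The control cells (shNC) carried a scrambled short hairpin RNA and the knockdown cells (shMETTL14) a hairpin against METTL14. Both came from the same line and the same pLKO.1 lentiviral vector, and the labels do not tell which METTL14 hairpin the sequenced cells carried or whether the libraries came from separate cultures. The p-values below therefore measure only the spread between these libraries, which may be technical.

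The libraries held 18925786 to 19886214 counts in genes. METTL14 had 753 and 754 counts in the shNC libraries and 303 and 321 in the shMETTL14 libraries, 41.7% of the control level (log2 fold change −1.26, SE 0.083, adjusted p = 3.64e-11, edgeR). All 10 noradrenergic neuroblastoma markers were detected in every library, and their summed level was 5542 to 5689 CPM (counts relative to library size, scaled by edgeR's TMM factors). Of these markers 8 were lower and 2 higher after knockdown at an adjusted p under 0.05. At that threshold 25.3% of all tested genes were lower and 27.2% higher, the shares to set beside each marker count in this paragraph. MYCN carried much of the summed noradrenergic level and rose from 2637 and 2596 CPM to 3153 and 3193 CPM. The other 9 noradrenergic markers together went from 3052 and 2964 CPM to 2389 and 2401 CPM. Mesenchymal markers summed to 591 and 606 CPM in shNC against 535 and 544 CPM in shMETTL14, with 4 of 6 tested markers lower and 1 higher, and PRRX1 was at or below 3 counts. Markers of immune, endothelial and epithelial cells summed to 4.37 to 7.05 CPM, with CD68, PECAM1, CDH5 and CDH1 at no more than 4 counts. The part of these marker differences in the synthetase results was not tested. In bulk RNA, fewer cells of a kind and less RNA per cell cannot be told apart.

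Cells keep a cytosolic set of synthetases, which charges tRNAs for ribosomes in the cytoplasm, and a mitochondrial set encoded by other nuclear genes. GARS1 and KARS1 each give both forms from a single gene, QARS1 serves the glutamine step in the cytosol, and EPRS1 carries glutamyl and prolyl activity in one chain. FARSA and FARSB are the subunits of one phenylalanine enzyme. Several cytosolic synthetases gather in the multi-tRNA synthetase complex around the scaffold proteins AIMP1, AIMP2 and EEF1E1. When amino acids run short, uncharged tRNA activates the kinase GCN2, and the transcription factor ATF4 then switches on amino acid transporters, biosynthetic enzymes and many cytosolic synthetase genes through C/EBP-ATF response elements.

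Because that element is a known way in which synthetase genes are controlled together, it was looked for in their promoters. RefSeq promoter windows on GRCh38.p14, reaching from 250 bases before to 50 bases after the start, were matched for 30 of the 35 genes, 16 cytosolic and 14 mitochondrial. Some genes have 2 annotated starts, so these 30 genes had 39 windows, and a gene was counted once if any of its windows held the letters. LARS1, VARS1, YARS1, AARS2 and VARS2 had no window. The letters TGATGNAAN were found on either strand in 7 of 16 cytosolic and 1 of 14 mitochondrial genes, against 4.45% of all 27305 genes with a window and 2.67% of the 11335 tested genes with one. Counted by window, it was in 8 of these 39 windows and in 3.61% of all 35116 windows. The 8 matches follow, with the element in capitals, 5′ to 3′ on the strand of the gene, so that most show the reverse complement.
AARS1 (chr16:70289676-70289704, minus strand): ttttctcgcaGTTGCATCAgccaagttag
CARS1 (chr11:3057408-3057436, minus strand): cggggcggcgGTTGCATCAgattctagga
GARS1 (chr7:30594834-30594862, plus strand): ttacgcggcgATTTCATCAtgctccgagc
IARS1 (chr9:92293693-92293721, minus strand): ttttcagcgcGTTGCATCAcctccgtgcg
MARS1 (chr12:57488053-57488081, plus strand): gccggttccgGTTGCATCAgcgagggatt
NARS1 (chr18:57621804-57621832, minus strand): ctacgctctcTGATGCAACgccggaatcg
TARS1 (chr5:33440956-33440984, plus strand): gcgcctttcgATTGCATCAgctggtccag
YARS2 (chr12:32756076-32756104, minus strand): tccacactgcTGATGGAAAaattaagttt

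Of these elements, 5 began within 34 bases before the start or just after it in CARS1, GARS1, IARS1, MARS1 and TARS1, whose first bases lay at −3, −34, −14, −5 and +2 from the start of the window that held the match. NARS1 held it at +15, AARS1 at −188 and YARS2 at −197. The shorter word TGATGCAA, which lies inside the longer pattern and was searched only after these matches were seen, stood in 6 of 16 cytosolic and 0 of 14 mitochondrial genes, against 1.08% of all genes and 0.785% of tested genes. GARS1 and YARS2 were the 2 matches without it. The E-box CACGTG, a site read by MYC family factors, was in 1 of 16 cytosolic genes (IARS1) and 3 of 14 mitochondrial genes (CARS2, EARS2 and MARS2), against 8.77% of all genes and 12.5% of tested genes. The NRF1 core GCATGCGC, common at genes of mitochondrial proteins, was in 0 of 16 cytosolic and 2 of 14 mitochondrial genes (MARS2 and YARS2), against 3.68% of all genes and 6.46% of tested genes. Over all 30 genes, 4 held the E-box and 2 the NRF1 core, close to the share in tested genes. A match is a run of letters and not a measured binding site.

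After knockdown 20 of the 35 synthetase genes were called, meaning an adjusted p under 0.05 in edgeR's quasi-likelihood F-test with Benjamini-Hochberg adjustment over all 16309 genes tested. That compares with 52.5% of all tested genes called. Of the synthetase genes 13 were higher, against 27.2% of all genes higher, and 7 were lower, against 25.3% of all genes lower. In 28 of 35 the groups did not overlap, which held for 75.5% of all genes. Only 2 synthetase genes, AARS2 and FARS2, were both called and changed at least 1.5-fold, whereas 18.8% of all tested genes were. The median log2 fold change was 0.044 over the 35 genes and −0.00095 over all tested genes. The changes were small, ran in both directions and were divided unevenly between compartments.

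Cytosolic genes split evenly, with 6 higher, 6 lower and 7 not called, and their median log2 fold change was −0.053 (range −0.38 to 0.56). Mitochondrial genes had 7 higher, 1 lower and 8 not called, and their median was 0.12 (range −0.26 to 0.66). The medians differed by −0.17 on the log2 scale, cytosolic minus mitochondrial, a description with no test. Leaving out shNC 1 moved that difference to −0.28 and the mitochondrial median to 0.20, while leaving out shMETTL14 2 moved the cytosolic median to −0.0049. With upper quartile scaling, which moved the median of all genes to −0.069 and lowered the higher calls from 51.8% to 41.7% of all calls, cytosolic genes had 5 higher and 10 lower, and mitochondrial genes 6 higher and 2 lower.

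**Figure D1:**
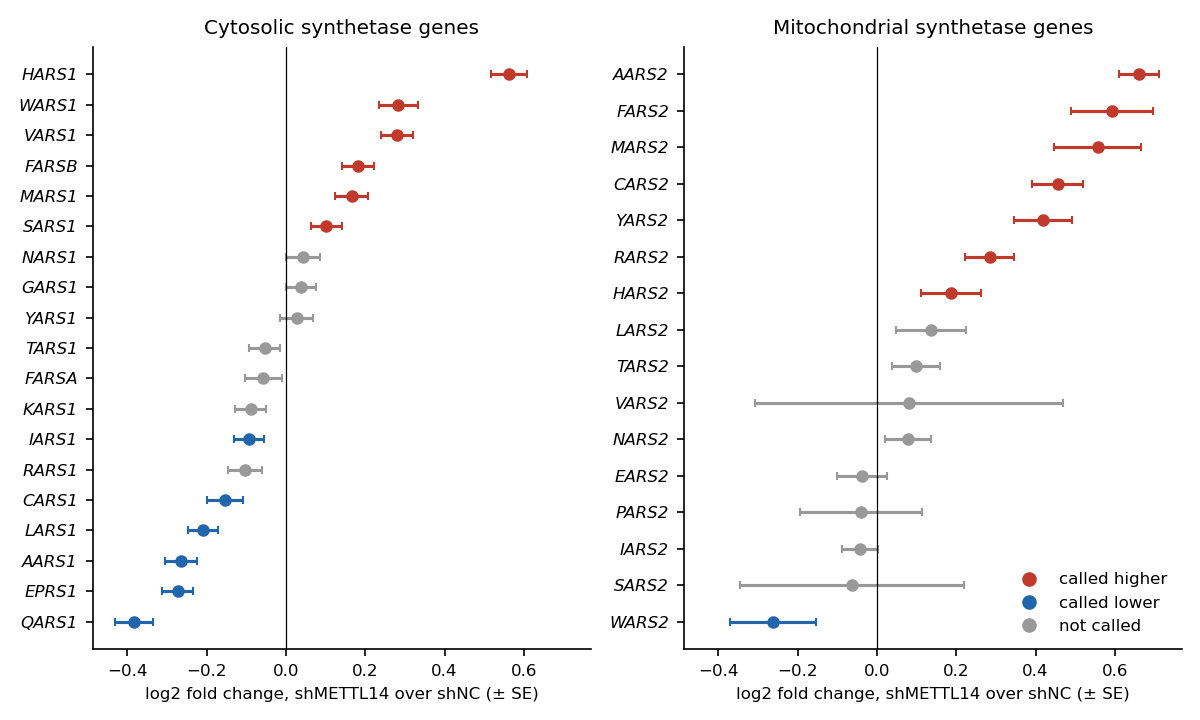
Log2 fold change (shMETTL14 over shNC) of the 35 synthetase genes, with bars of 1 standard error from edgeR, by compartment and coloured by call. Cytosolic genes run from −0.38 (QARS1) to 0.56 (HARS1), and mitochondrial genes from −0.26 (WARS2) to 0.66 (AARS2).

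Levels differed far more between compartments than between groups. Per kilobase of exon, cytosolic genes in shNC lay at 10.3 (HARS1) to 98.1 (GARS1) CPM with a median of 49.97, and mitochondrial genes at 0.121 (VARS2) to 32.1 (IARS2) CPM with a median of 6.59. Counts ran from 1483 to 8343 in the cytosolic set and from 16 to 2631 in the mitochondrial set. The standard error of the log2 fold change was accordingly smaller in the cytosolic set (median 0.041, range 0.038 to 0.050) than in the mitochondrial set (median 0.075, range 0.044 to 0.39). A change that was called in a cytosolic gene could therefore go uncalled in a mitochondrial gene of low count.

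**Figure D2:**
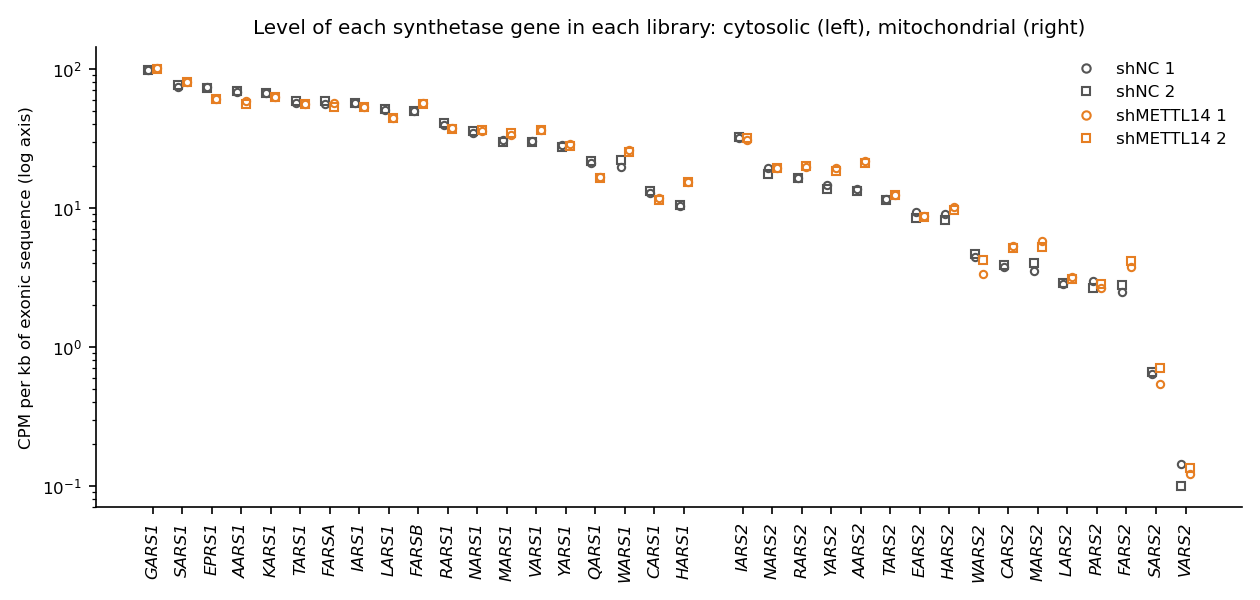
Level of each synthetase gene in CPM per kilobase of exon (log axis) in each of the 4 libraries, cytosolic genes on the left and mitochondrial genes on the right. GARS1 (98.1 in shNC) is the highest and VARS2 (0.121) the lowest, and points of one gene lie close together compared with the distance between genes.

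Among the 7 cytosolic synthetases of the multi-tRNA synthetase complex, 4 were lower (QARS1, EPRS1, LARS1 and IARS1), 1 was higher (MARS1) and RARS1 and KARS1 were not called. Their median log2 fold change was −0.10, and their summed level was 1959 and 1962 CPM in shNC against 1786 and 1787 CPM in shMETTL14. In all 7 the groups did not overlap, MARS1 being the member above control. Over all tested genes, the groups did not overlap in 75.5%, and 25.3% were called lower and 27.2% higher. The 12 cytosolic genes outside the complex had 5 higher and 2 lower, with a median of 0.041.

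QARS1 (ENSG00000172053), the glutaminyl-tRNA synthetase on chromosome 3 (49095932 to 49105135, minus strand, GRCh38), had 1980 and 1977 counts in shNC and 1534 and 1483 in shMETTL14. Its level went from 101.3 ± 2.76 CPM (SD, n = 2) to 77.7 ± 0.912 CPM (n = 2), a log2 fold change of −0.38 (SE 0.048, edgeR adjusted p = 7.18e-07). It was the largest fall of the cytosolic set, and both knockdown libraries lay well below both controls. EPRS1, which charges glutamate and proline tRNAs, had 7992 and 7652 counts in shNC and 6453 and 6408 in shMETTL14. That was 400 ± 0.963 against 331 ± 2.39 CPM (SD, n = 2 each) and a log2 fold change of −0.27 (SE 0.038, edgeR adjusted p = 2.89e-06). The knockdown libraries again lay close together and below control.

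LARS1, the leucyl enzyme that also serves as a leucine sensor for mTORC1 signalling, had 8257 and 7980 counts in shNC and 7085 and 6882 in shMETTL14. Its log2 change was −0.21 (SE 0.038, edgeR adjusted p = 8.18e-05), and the groups did not overlap. IARS1, the isoleucyl enzyme, had 8343 and 8072 counts against 7773 and 7524 counts, a log2 fold change of −0.093 (SE 0.038, edgeR adjusted p = 0.0443). That call sat at the threshold: it was lost when shNC 2 (−0.082, adjusted p = 0.101), shMETTL14 1 (−0.10, adjusted p = 0.145) or shMETTL14 2 (−0.073, adjusted p = 0.307) was left out, and with DESeq2 (adjusted p = 0.0931) or no filter (adjusted p = 0.118). For RARS1, the arginyl enzyme, the change was −0.10 (adjusted p = 0.0518), and it was called lower without shNC 1 (−0.13, adjusted p = 0.0338). KARS1, the lysyl enzyme, changed by −0.088 (adjusted p = 0.0621). Both were called lower with upper quartile scaling (−0.17 and −0.16), library size alone, at least 10 counts in every library and the replicate block, where 6 of the 7 complex genes were lower, and RARS1 also with RLE scaling. DESeq2 and no filter left 3 of 7 lower. MARS1, the methionyl enzyme, went the other way with 4341 and 4031 counts in shNC and 4622 and 4705 in shMETTL14, a log2 fold change of 0.17 (SE 0.041, edgeR adjusted p = 0.00173). Its exons share 355 bases with DDIT3 and 519 with ARHGAP9, both on the opposite strand, and DDIT3 itself changed by −0.091 (adjusted p = 0.37).

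Outside the complex the largest fall was in AARS1, the alanyl enzyme on chromosome 16 (70252295 to 70289543, minus strand). Its counts were 6129 and 5980 in shNC and 5170 and 4847 in shMETTL14, or 310 ± 3.39 against 258 ± 8.63 CPM (SD, n = 2 each). On the log2 scale it fell by 0.26 (SE 0.040, edgeR adjusted p = 9.17e-06), and both knockdown libraries were below both controls. CARS1, the cysteinyl enzyme, had 2548 and 2523 counts in shNC and 2335 and 2198 in shMETTL14, a log2 fold change of −0.15 (SE 0.045, edgeR adjusted p = 0.00692). It was not called without shNC 2 (−0.13, adjusted p = 0.0517) or without shMETTL14 2 (−0.11, adjusted p = 0.143), so its call depended on both of these libraries.

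HARS1 (ENSG00000170445), the histidyl enzyme, showed the largest rise of the cytosolic set. It had 1603 and 1571 counts in shNC and 2353 and 2306 in shMETTL14, or 81.2 ± 1.14 against 120.0 ± 0.251 CPM (SD, n = 2 each). The change was 0.56 on the log2 scale (SE 0.046, edgeR adjusted p = 1.06e-09), 148% of control, and 90.2% of all tested genes had a lower fold change. HARS1 was also the cytosolic gene of lowest level per kilobase. WARS1, the tryptophanyl enzyme known as an interferon-induced gene, had 2511 and 2715 counts in shNC and 3256 and 3071 in shMETTL14. Its log2 change was 0.28 (SE 0.050, edgeR adjusted p = 5.79e-05), with both knockdown libraries above control though the control pair was itself apart, at 126 and 142 CPM. VARS1, the valyl enzyme, had 3689 and 3449 counts in shNC and 4322 and 4285 in shMETTL14, and its log2 change was 0.28 (SE 0.040, edgeR adjusted p = 4.91e-06). Here the groups were well separated, at 180 and 185 CPM against 221 and 223 CPM.

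FARSB, the beta subunit of the phenylalanine enzyme, had 3339 and 3239 counts in shNC and 3766 and 3650 in shMETTL14 (log2 fold change 0.18, SE 0.041, edgeR adjusted p = 7.27e-04). Its partner FARSA, the alpha subunit, had 2705 and 2747 against 2707 and 2504 counts, with overlapping groups and a change of −0.057 (adjusted p = 0.32), so the subunit genes of 1 enzyme were not called together. SARS1, the seryl enzyme, was called higher at 0.10 (SE 0.039, adjusted p = 0.0339), but not without shNC 1 (0.076, adjusted p = 0.158), shMETTL14 1 (0.11, adjusted p = 0.103) or shMETTL14 2 (0.10, adjusted p = 0.135). It was also lost with upper quartile scaling (0.034), library size alone (0.056), at least 10 counts in every library (0.083) and DESeq2 (adjusted p = 0.123). TARS1, YARS1, GARS1 and NARS1, the threonyl, tyrosyl, glycyl and asparaginyl genes, were not called, with fold changes from −0.053 to 0.044. Among these, YARS1, GARS1 and NARS1 were above 0 under the main TMM scaling and below 0 under upper quartile scaling and with library size alone. TARS1 was called lower with upper quartile scaling (−0.12, adjusted p = 0.0132) and with library size alone (−0.098, adjusted p = 0.0382).

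In the mitochondrial set the largest rise was in AARS2 (ENSG00000124608), the alanyl enzyme on chromosome 6 (44299654 to 44313326, minus strand), which is linked to cardiomyopathy and leukodystrophy. It had 1170 and 1096 counts in shNC and 1824 and 1736 in shMETTL14, or 58.0 ± 1.04 against 91.7 ± 2.09 CPM (SD, n = 2 each). On the log2 scale this was a rise of 0.66 (SE 0.051, edgeR adjusted p = 4.58e-10), 158% of control, and 92.7% of tested genes had a lower fold change. Both knockdown libraries (93.2 and 90.2 CPM) were far above both controls (58.7 and 57.2 CPM). FARS2, the single-chain mitochondrial phenylalanine enzyme, had 238 and 257 counts in shNC and 356 and 386 in shMETTL14, a log2 fold change of 0.59 (SE 0.10, edgeR adjusted p = 5.15e-05) and 151% of control. MARS2, the methionyl enzyme and a gene of 1 exon on chromosome 2 (197705369 to 197708387, plus strand), had 210 and 231 counts against 340 and 305 counts. Its log2 change was 0.56 (SE 0.11, edgeR adjusted p = 2.00e-04). For both genes the groups were apart although the counts were low.

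CARS2, the cysteinyl enzyme, which also makes cysteine persulfides, had 779 and 781 counts in shNC and 1097 and 1029 in shMETTL14 (log2 fold change 0.46, SE 0.063, edgeR adjusted p = 2.92e-06). YARS2, the tyrosyl enzyme, had 626 and 567 counts against 822 and 762 counts (0.42, SE 0.074, edgeR adjusted p = 5.66e-05). RARS2, the arginyl enzyme, had 828 and 794 counts against 981 and 981 counts (0.28, SE 0.063, edgeR adjusted p = 6.17e-04). The knockdown libraries were above control in all of these, and AARS2, CARS2, FARS2, MARS2, RARS2 and YARS2 were called higher under each alternative and each left-out library.

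HARS2, the mitochondrial histidyl gene, lies head to head with HARS1 on chromosome 5. By their RefSeq starts, 86 bases run from the first base of one to the first base of the other (140691370 to 140691455, GRCh38, 59.3% G and C). In GENCODE 29 the genes overlap, since HARS1 (minus strand) reaches 140691862 and HARS2 (plus strand) begins at 140691426. Their exons in that annotation share 437 bases on opposite strands, 11.7% of the HARS2 exons. HARS2 had 678 and 587 counts in shNC and 739 and 691 in shMETTL14, or 32.3 ± 2.38 against 36.8 ± 1.3 CPM (SD, n = 2 each). The log2 fold change of 0.19 (SE 0.076, edgeR adjusted p = 0.0448) was at the threshold and was lost without shNC 2 (0.12, adjusted p = 0.277) or shMETTL14 1 (0.15, adjusted p = 0.214). HARS2 kept its call in 2 of the 7 alternatives that used every library and lost it with upper quartile scaling (0.12, adjusted p = 0.199), library size alone, either other filter and DESeq2 (adjusted p = 0.195). Its controls, at 34.0 and 30.7 CPM, lay apart by nearly as much as the group means did. The strand setting of the counting was not stated, so reads in the shared bases cannot be assigned. The other side of this divergent pair, HARS1, rose by more than HARS2 did, and the log2 ratio of HARS1 to HARS2 went from 1.24 and 1.42 in shNC to 1.67 and 1.74 in shMETTL14.

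WARS2, the mitochondrial tryptophanyl gene, was the single fall of its set. It had 339 and 341 counts in shNC and 253 and 310 in shMETTL14, a log2 fold change of −0.26 (SE 0.11, edgeR adjusted p = 0.0471). The knockdown libraries differed from each other by more than the upper one differed from control. The call was lost without shNC 1 (−0.30, adjusted p = 0.0605), shNC 2 (−0.22, adjusted p = 0.172) or shMETTL14 1 (−0.11, adjusted p = 0.512), and without shMETTL14 2 the change was −0.42 (adjusted p = 0.00421). It was also lost with DESeq2 (adjusted p = 0.196) and with no filter (adjusted p = 0.106).

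The other 8 mitochondrial genes were not called: SARS2, IARS2, PARS2, EARS2, NARS2, VARS2, TARS2 and LARS2, which charge serine, isoleucine, proline, glutamate, asparagine, valine, threonine and leucine tRNAs. Their changes ran from −0.062 to 0.14. IARS2, the most abundant of the set, had 2631 and 2598 counts against 2492 and 2552 counts, with overlapping groups. VARS2 (16 to 24 counts) and SARS2 (34 to 44 counts) were measured with little precision (SE 0.39 and 0.28), and 22% and 57% of their exonic bases are shared with other genes.

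Summed over the sets, cytosolic synthetase RNA was 4481 and 4532 CPM in shNC and 4444 and 4397 CPM in shMETTL14, and mitochondrial synthetase RNA was 567 and 558 CPM against 647 and 647 CPM. The cytosolic sum includes GARS1 and KARS1 (means of 407 and 272 CPM in shNC), which also give the mitochondrial forms. The ratio below is therefore one of gene sets and not of the RNA for each compartment. The ratio of the cytosolic to the mitochondrial sum was 7.90 and 8.12 in shNC and 6.87 and 6.80 in shMETTL14, or 8.01 ± 0.153 against 6.83 ± 0.0485 (SD, n = 2 each). The groups did not overlap, and the log2 change of the ratio was −0.23. Without the most abundant gene of each set, GARS1 and IARS2, it was −0.30. With 2 libraries a group the smallest two-sided p of an exact permutation test is 0.3333, so none is given.

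The enzymes that charge the same amino acid were then set side by side as 17 pairs, in which FARS2 and EPRS1 each enter 2 pairs. The log2 ratio of cytosolic to mitochondrial CPM was lower in both knockdown libraries than in both controls in 11 pairs, higher in 2 (histidine and tryptophan) and overlapping in 4 (isoleucine, asparagine, serine and valine). Among all tested single genes, 75.5% had groups that did not overlap, and no such share was computed for ratios of other genes. For alanine the ratio was 2.39 and 2.45 in shNC and 1.503 and 1.481 in shMETTL14, a difference of −0.93, the largest of all pairs. For cysteine it was 1.71 and 1.69 against 1.09 and 1.10, a difference of −0.61. In these pairs the cytosolic gene fell and the mitochondrial gene rose. Tryptophan had the opposite arrangement, WARS1 higher and WARS2 lower, with ratios of 2.89 and 2.99 against 3.69 and 3.31 and a difference of 0.56. In the remaining pairs the members were not called in opposite directions.

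**Figure D3:**
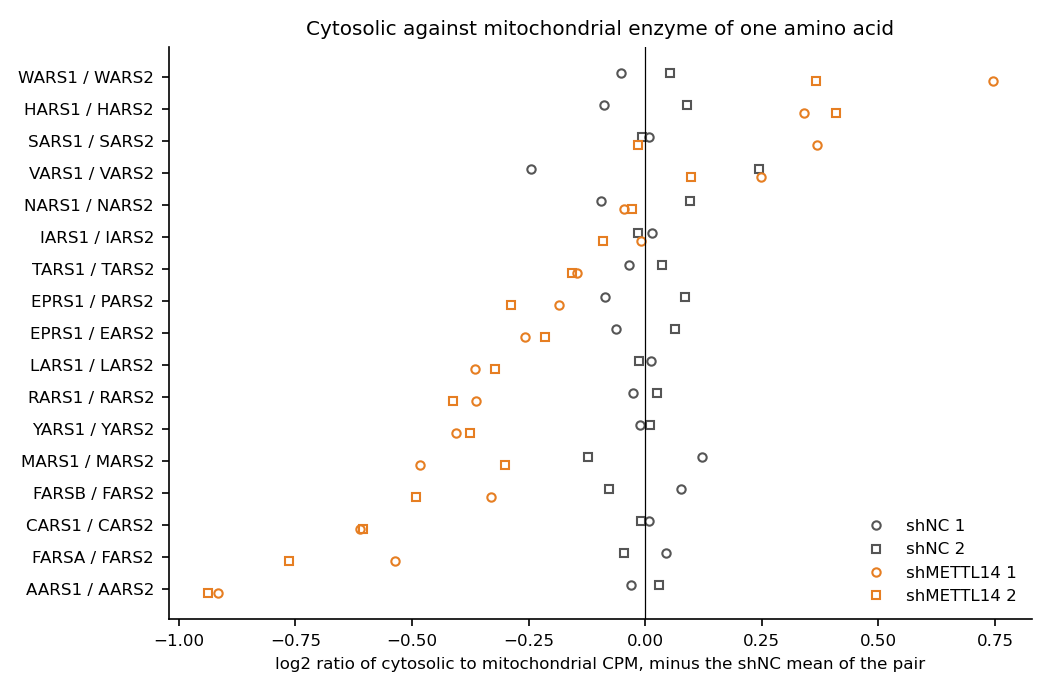
Log2 ratio of cytosolic to mitochondrial CPM for each amino acid in each library, less the mean of the shNC pair. Knockdown libraries lie below both controls in 11 of 17 pairs, lowest for alanine (−0.93), and above in histidine (0.37) and tryptophan (0.56). Among all tested single genes, 75.5% had groups that did not overlap.

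The proteins around the synthetases did not move as one either. Of the complex scaffolds, AIMP2 rose from 1228 and 1281 counts to 1921 and 1886 counts (log2 fold change 0.61, SE 0.052, edgeR adjusted p = 2.07e-09). EEF1E1 rose from 128 and 128 counts to 203 and 253 counts (0.84, SE 0.14, edgeR adjusted p = 2.86e-05). AIMP1 had 1874 and 1770 counts against 1574 and 1698 counts and was called lower (−0.15, SE 0.051, edgeR adjusted p = 0.0215). That call was lost without shNC 1 (−0.14, adjusted p = 0.062), without shMETTL14 1 (−0.076, adjusted p = 0.381), with DESeq2 (adjusted p = 0.115) and with no filter (adjusted p = 0.0685). AIMP2 and EEF1E1 were higher while 4 synthetases of the same complex were lower. Of the AIMP2 exonic bases 28.9% are shared with EIF2AK1, and of the EEF1E1 exonic bases 18.7% with EEF1E1-BLOC1S5 on the same strand.

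Of the 12 synthetase genes listed from general knowledge as ATF4-responsive, 3 were higher (SARS1, MARS1 and WARS1) and 5 lower (AARS1, CARS1, EPRS1, IARS1 and LARS1), with a median of −0.013. The 7 cytosolic genes outside that list had 3 higher and 1 lower, with a median of −0.057. Among the 20 other genes of the ATF4 and amino acid response, 8 were lower and 2 higher, with a median of −0.092. Beside each count in this paragraph stand 25.3% lower and 27.2% higher over all tested genes. ATF4 itself had 15199 and 15048 counts in shNC and 12732 and 12089 in shMETTL14 (log2 fold change −0.28, SE 0.037, edgeR adjusted p = 2.09e-06). ASNS, asparagine synthetase and a classical ATF4 target, had 405 and 393 counts against 208 and 181 counts (−1.03, edgeR adjusted p = 3.37e-08). Of its exonic bases, 44.6% are shared with another annotated gene on the same strand. The cystine transporter gene SLC7A11 fell by 1.33 on the log2 scale, and the glutathione-degrading CHAC1 fell by 0.66. ALDH18A1, a proline synthesis gene, rose by 0.31. TRIB3, an ATF4-induced pseudokinase gene, was called higher at 0.19 (adjusted p = 0.0163), but not with upper quartile scaling (0.12, adjusted p = 0.116), library size alone (0.14, adjusted p = 0.0631) or DESeq2 (adjusted p = 0.12), nor without shNC 1 (0.16, adjusted p = 0.0941) or shMETTL14 1 (0.16, adjusted p = 0.13). Of 7 cytosolic synthetase genes with the promoter element, 3 were lower and 1 higher (median −0.053, largest fall −0.26 in AARS1). Of 9 with a window but without the element, 2 were lower and 4 higher (median −0.057).

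**Figure D4:**
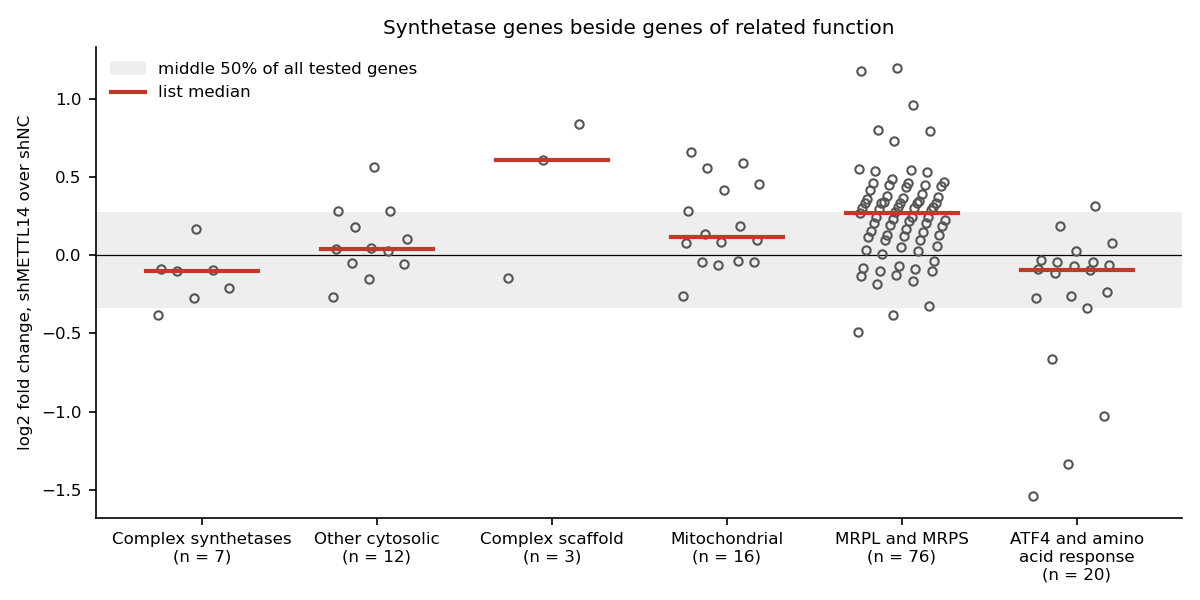
Log2 fold change (shMETTL14 over shNC) of single genes in each list, with the list median as a bar and a grey band for the middle 50% of all tested genes. The complex synthetases (median −0.10) and other ATF4 genes (−0.092) lie lower than the mitochondrial synthetases (0.12) and mitochondrial ribosomal protein genes (0.27), whose differences were not tested.

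Factors that act after charging were also divided. Among cytosolic elongation factors EEF1A1 (−0.34, edgeR adjusted p = 1.98e-08) and EEF2 (−0.44, edgeR adjusted p = 4.18e-10) fell and EEF1A2 rose (0.23), in 5 tested genes. Among 4 mitochondrial elongation factors TUFM (0.19, edgeR adjusted p = 9.32e-04) and GFM1 (0.33, edgeR adjusted p = 7.75e-06) rose. Mitochondrial ribosomal protein genes, which translate with the tRNAs that the mitochondrial synthetases charge, had 50 of 76 higher and 5 lower, with a median of 0.27. Over all tested genes 27.2% were called higher and 25.3% lower, the shares to set beside each count in this paragraph. The amidotransferase and formylation genes had 1 of 4 lower, GATC (−0.27, edgeR adjusted p = 0.00107), which shares 47.6% of its exonic bases with other genes. By structural class, leaving out EPRS1, which holds a domain of each and was lower, 7 of 18 class I genes were higher and 5 lower, and 6 of 16 class II genes were higher and 1 lower.

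METTL14 acts with METTL3 on adenosines in short sequence contexts of which GGACT is a frequent form. In the longest coding transcript, the word occurred at a median of 1.67 per kilobase in mitochondrial and 1.14 in cytosolic synthetase genes, against 0.926 over 12788 tested genes. It was 1.6 in the 13 higher genes, 1.2 in the 7 lower and 1.12 in the 15 not called. These groups differ in compartment, since 7 of the 13 higher genes but 1 of the 7 lower are mitochondrial. Within the cytosolic set the 6 higher genes ran from 0.297 to 1.86 per kilobase and the 6 lower from 0.21 to 1.93. Over all tested genes the median was 0.958 in those called higher, 0.884 in those called lower and 0.932 in those not called. A link between the density of the word and the direction of change was not tested. RARS2 and FARS2, both higher, had 4.40 and 2.96 per kilobase, and WARS2, lower, held none. FARSB and MARS1, also higher, had 0.297 and 0.344, IARS1, lower, had 1.93, and TARS2, not called, had 2.57. This counts letters in a transcript and not methylated sites, and methylation of these transcripts was not analysed here.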

How the data were processed

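Total RNA of 4 SK-N-BE(2) libraries was read as paired ends. The authors deposited raw counts per Ensembl gene ID in an htseq-count layout. The submitters' processing notes name HISAT2 2.1.0, StringTie 1.3.6, HTSeq 0.13.5 and edgeR with GRCh38, but the annotation release and strand setting were not given in the sources used here. Lines naming no gene (19.1% to 19.9% of counts) were left out. The counts of 18925786 to 19886214 per library set the precision of each value, and standard errors cover these libraries only.

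Counts were tested with edgeR 4.0.16 under R 4.3.3, using its quasi-likelihood F-test, TMM scaling and filterByExpr (minimum count 10, minimum total 15), with group as the only term. P-values were adjusted by Benjamini-Hochberg over 16309 genes, and genes were called under 0.05. The standard error was the log2 fold change over the square root of F. CPM were computed from TMM-scaled library sizes. Gene coordinates and exons were those of GENCODE 29 (GRCh38) and the authors may have used another release. Promoter windows and the 86-base interval between HARS1 and HARS2 used RefSeq starts. Alternatives were RLE, upper quartile or no scaling factors, DESeq2 1.42.0, other filters, a replicate block and leaving out each library. The code was tested on simulated data.

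The members, gene lists and tests were chosen with earlier results of these data known, and the TGATGCAA search after other matches were seen. All 35 members could be named. Values in full were given for up to 5 rises and 5 falls per compartment among called members whose groups did not overlap, for pairs called in opposite directions and for HARS1 and HARS2.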

Additional observations from a re-analysis of the deposited data

How the results depend on the processing

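Of the 20 called synthetase genes, 16 kept their call under all 7 alternatives that used every library and 15 also without each library in turn. Counting only changes of at least 1.5-fold left 2. Upper quartile scaling gave 10 cytosolic and 2 mitochondrial genes lower, and medians of −0.12 (cytosolic), 0.050 (mitochondrial), −0.17 (complex), −0.080 (ATF4-responsive synthetases), −0.16 (other ATF4 genes, 1 higher and 14 lower) and −0.10 (accessory, editing, elongation and scaffold genes), with GARS1 at −0.030, NARS1 at −0.024 and YARS1 at −0.040. Library size alone gave medians of −0.098, 0.072, −0.15, −0.058, −0.14 (1 higher) and −0.078 in the same order, with GARS1 at −0.0076, NARS1 at −0.0010 and YARS1 at −0.017. These settings shift all genes down, by −0.069 and −0.046 at the median. At least 10 counts in every library gave mitochondrial, complex and ATF4-responsive medians of 0.099, −0.12 and −0.031. No filter gave 0 mitochondrial genes lower and medians of 0.13 (mitochondrial) and −0.093 (complex). DESeq2 gave 0 mitochondrial genes lower and 1 other ATF4 gene higher, and its count of all calls was 6022 against 8561. Without GARS1 and IARS2 the log2 change of the compartment ratio was −0.30. The cause of the other changes was not tested.

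Leaving out 1 library at a time gave medians of −0.082 to −0.0049 (cytosolic), 0.11 to 0.20 (mitochondrial), −0.28 to −0.12 (their difference), −0.13 to −0.088 (complex), −0.036 to 0.0011 (ATF4-responsive synthetases), −0.11 to −0.060 (other ATF4 genes) and −0.050 to 0.015 (accessory list). It gave 0 to 1 mitochondrial genes lower, 3 to 5 ATF4-responsive synthetases lower and 1 to 2 other ATF4 genes higher. EARS2 ran from −0.097 to 0.025, PARS2 from −0.12 to 0.047, SARS2 from −0.26 to 0.13 and VARS2 from −0.15 to 0.37, all uncalled.

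The labels tie libraries of the same number by that number alone. Their deviations from the group means correlated with a Pearson r of 0.0048 across genes. With 2 libraries a group, that value cannot tell whether they shared a culture, preparation or run. With a replicate block 22 synthetase genes and 8926 of all genes were called, and the accessory list median was 0.00038.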
